A study of Arabidopsis thaliana with 12 samples.

Results

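The genes described here are 38 nuclear genes of Arabidopsis thaliana whose array signal was clearly lower in the pam46 mutant than in wild type (WT). They were chosen by their values. After quantile normalization and log2, a gene was kept if its highest pam46 sample lay below its lowest WT sample and its mean log2 difference, pam46 minus WT, was -1 or less. Of the 691 genes that had their own feature on the array, 45 met these criteria. CHLM, SECE1, AT1G11820, GH9B16, OTP70, AT4G14050 and AT1G61990 also met them and are not described. Because the same contrast chose the genes, their differences are given as a description. Where a limma call of one of them is mentioned, it says only how the value depends on the processing and is no test of the gene.

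Total RNA was measured in 6 samples of the pam46 mutant and 6 of WT, both in ecotype Columbia 0. The labels describe pam46 as a mutant whose photosynthesis is altered and which lacks the function of a protein not further named. They name neither tissue, plant age nor growth conditions. They also do not say whether the 6 samples of a group came from separate plants, so the spread between them may be technical. In such bulk RNA, fewer cells of a type and less RNA per cell cannot be told apart.

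Most proteins of the chloroplast are encoded in the nucleus, made in the cytosol and imported. Plastids send signals to the nucleus, so that the transcripts of nuclear genes can change when photosynthesis is disturbed. Photosynthesis also produces reactive oxygen, against which plastids hold peroxiredoxins and other antioxidant enzymes, and thylakoid membranes need plastid lipids and lipid-binding proteins of the fibrillin family.

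Intensities were deposited on a linear scale from 0 to a cap of 100. Summed intensity was 3297 to 3561 in pam46 samples and 3290 to 3644 in WT samples. The median over all features was 0.199 to 0.226 in pam46 and 0.296 to 0.341 in WT, with no overlap between the groups. Features listed at 0 numbered 196 to 317 in pam46 samples and 133 to 179 in WT samples. Quantile normalization removes the difference in medians, and normalized values were not allowed below a floor of 0.0278 (-5.17 on the log2 scale). Differences below are on that normalized log2 scale, whereas intensities are as deposited.

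Across the 38 genes, the median log2 difference was -1.49, from -3.36 for AT3G52550 to -1.01 for AT2G22890. The median over all 3438 genes or features was 0.00. Of the 38 genes, 6 had a difference of -2 or less, 12 lay between -2 and -1.5, and 20 lay above -1.5. The genes' median deposited intensity was 0.0918 to 0.132 in pam46 samples and 0.436 to 0.494 in WT samples. Every pam46 sample lay well below every WT sample in this median, as the choice of genes requires.

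The same criteria were met by 264 of all 3438 genes or features (7.68%), and 256 (7.45%) met them in the opposite direction. Among genes with their own feature the share was 6.51%, among features of several genes 9.54% and among features with no gene 7.25%. In the fit across all genes or features with limma, 21.6% were called lower in pam46 at an adjusted p under 0.05. All 38 genes were among them, which the choice of genes made likely. Samples with consecutive numbers deviated together. With these averaged, 3 against 3, 9.08% were called lower, and 29 of the 38 genes were among them. The 9 others were AT2G46910, AT1G04330, AT1G03660, SRX, AT4G33500, AGL54, AT4G02580, AT4G17440 and AT2G04360.

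**Figure D1:**
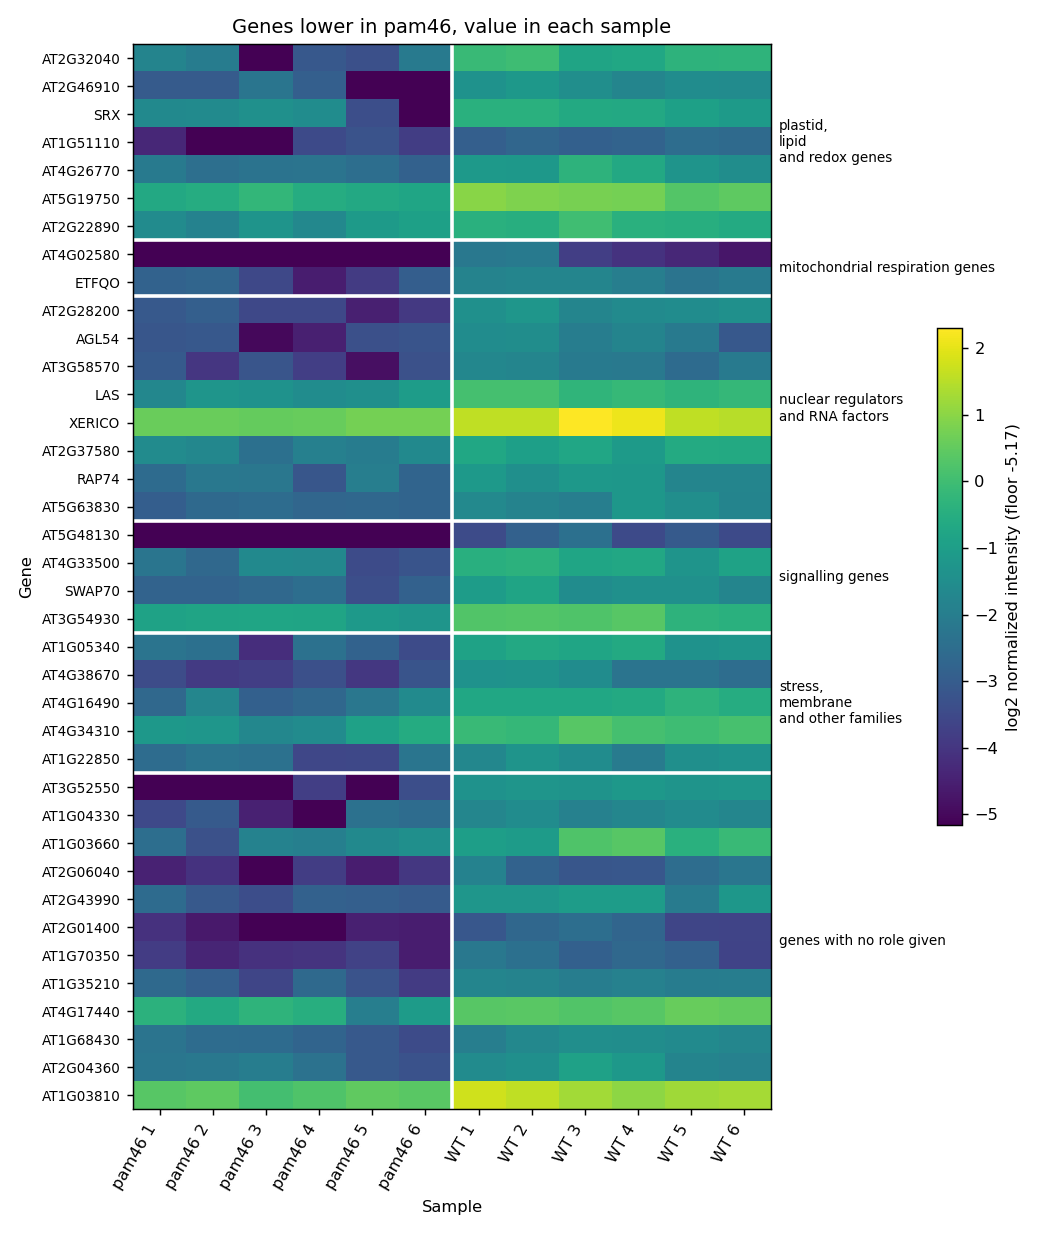
Log2 normalized intensity of the 38 genes (rows, grouped by known role) in the 6 pam46 samples (left of the white line) and the 6 WT samples (right), with colour as the scale. Pam46 is darker than WT in each row, and AT4G02580 and AT5G48130 stand at the floor of -5.17 in all 6 pam46 samples.

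The genes were grouped by what they are known to do, after their values had been seen. Of 7 genes of plastids, lipids and redox defence, differences ran from -2.55 to -1.01, with a median of -1.49. AT2G32040, a folate transporter of the plastid envelope, had intensities 0 to 0.239 (median 0.138) in pam46, against 0.589 to 1.10 (median 0.869) in WT. Its log2 difference was -2.55 (-3.38 to -1.85), where the range is over the 3 pairs of consecutive sample numbers (1 and 2, 3 and 4, 5 and 6). It was listed at 0 in pam46 sample 3, and the other pam46 samples also lay far below WT.

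A pair of genes of the fibrillin family, lipid-associated proteins of plastids, were among them. AT2G46910 had 0.00234 to 0.153 (median 0.0923) in pam46, against 0.325 to 0.513 (median 0.419) in WT, a log2 difference of -2.10 (-3.62 to -0.95). Its difference was uneven, since pam46 samples 5 and 6 stood at the floor while samples 1 to 4 did not. AT1G51110 was dimmer, at 0 to 0.0867 (median 0.0455) in pam46 and 0.141 to 0.250 (median 0.168) in WT. Its difference of -1.49 (-1.96 to -1.01) is limited by the floor, where pam46 samples 2 and 3 stood, both listed at 0.

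SRX encodes sulfiredoxin, which repairs overoxidised peroxiredoxins. Its intensity was 0 to 0.298 (median 0.270) in pam46, against 0.543 to 0.841 (median 0.657) in WT. Its difference was -1.76 (-3.26 to -0.83), and the largest part came from 1 pair of numbers: pam46 samples 1 to 4 were at -1.63, -1.60, -1.43 and -1.54 on the log2 scale, whereas samples 5 and 6 were at -3.37 and -5.17. The WT samples were at -0.42, -0.41, -0.64, -0.66, -0.93 and -1.10. Without pam46 sample 6 the difference was -1.22.

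Of the lipid genes, AT4G26770 encodes a CDP-diacylglycerol synthase, which makes a precursor of phospholipids. It had 0.118 to 0.196 (median 0.147) in pam46, against 0.425 to 0.802 (median 0.537) in WT, with a difference of -1.40 (-1.83 to -1.12). AT2G22890, a relative of the plastid fatty acid desaturase gene FAD4, had 0.225 to 0.480 (median 0.312) in pam46 and 0.727 to 0.992 (median 0.796) in WT. Its difference of -1.01 (-1.29 to -0.47) was the nearest to the threshold of -1 among the 38 genes. AT5G19750, of the Mpv17 and PMP22 family of organelle membrane proteins, was brighter, with 0.529 to 0.755 (median 0.608) in pam46, against 1.21 to 1.95 (median 1.60) in WT. Its difference was -1.25 (-1.52 to -1.10), with the 3 pairs of numbers within 0.5 of each other.

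Mitochondrial respiration was represented by 2 genes. AT4G02580 encodes a subunit of respiratory complex I, the NADH dehydrogenase. It was listed at 0 in all 6 pam46 samples, against 0.0770 to 0.265 (median 0.0935) in WT, and no fold is given. The WT samples were themselves uneven, with log2 values of -2.19 and -2.10 in samples 1 and 2, and -3.78, -4.06, -4.35 and -4.72 in samples 3 to 6. ETFQO, the oxidoreductase that passes electrons from the electron transfer flavoprotein to ubiquinone, had 0.0177 to 0.113 (median 0.0832) in pam46, against 0.273 to 0.343 (median 0.316) in WT. Its difference was -1.46 (-2.19 to -0.98), and no sample of either group stood at the floor.

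The group of nuclear regulators and RNA factors, in which RING finger genes were also placed, made up 8 of the genes. Their differences ran from -2.09 to -1.05 (median -1.21), and none had a pam46 sample at the floor. XERICO, a small RING-type zinc finger protein whose overexpression raises abscisic acid, was the brightest of the 38 genes. Its intensity was 1.45 to 1.77 (median 1.56) in pam46, against 2.78 to 4.43 (median 2.93) in WT, and its difference was -1.16 (-1.66 to -0.81). The pam46 samples were nearly level, with an SD of 0.0898 on the log2 scale, whereas WT samples 3 and 4 stood above the other WT samples.

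AT2G37580, another RING finger gene, had 0.137 to 0.285 (median 0.230) in pam46 and 0.502 to 0.726 (median 0.661) in WT, a difference of -1.09 (-1.24 to -0.81). AT2G28200, a zinc finger gene of the type found in plant stress regulators, had 0.0349 to 0.0987 (median 0.0549) in pam46, against 0.328 to 0.494 (median 0.436) in WT. Its difference of -2.09 (-2.75 to -1.68) was the lowest of these 8 genes. AT5G63830, of the HIT-type zinc finger family, had 0.0978 to 0.129 (median 0.126) in pam46, against 0.286 to 0.462 (median 0.375) in WT. At -1.05 (-1.09 to -1.01), its difference was nearly equal in the 3 pairs of numbers, the narrowest span of the 38 genes.

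LAS, the GRAS transcription factor needed to form axillary meristems and so side shoots, had 0.253 to 0.426 (median 0.318) in pam46, against 0.836 to 1.20 (median 0.919) in WT. Its difference was -1.27 (-1.59 to -0.98). AGL54, a MADS-box gene, had 0.00181 to 0.0920 (median 0.0832) in pam46 and 0.175 to 0.421 (median 0.313) in WT, a difference of -1.72 (-2.85 to -0.66). Its groups barely separated: WT sample 6 was at -3.11 on the log2 scale and lay 0.0043 above the highest pam46 sample. RAP74, the large subunit of the general transcription factor TFIIF, had 0.0735 to 0.211 (median 0.146) in pam46, against 0.364 to 0.550 (median 0.446) in WT, with a difference of -1.05 (-1.48 to -0.59). AT3G58570, a DEAD-box RNA helicase gene, had 0.0261 to 0.0917 (median 0.0574) in pam46, against 0.241 to 0.368 (median 0.282) in WT, and its difference was -1.62 (-1.78 to -1.35). Of these 4 genes, LAS had the smallest spread within its groups (SD 0.232 in pam46 and 0.184 in WT, log2).

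Another 4 genes belong to signalling families, with differences from -2.05 to -1.01. AT5G48130, a relative of NPH3, the adaptor protein of phototropism, was listed at 0 in 4 of 6 pam46 samples and had at most 0.0185 there. In WT it had 0.0873 to 0.220 (median 0.142). All 6 pam46 samples stood at the floor, so its difference of -2.05 (-2.22 to -1.89) is set by where the floor lies. AT4G33500, a protein phosphatase of the PP2C family, had 0.0775 to 0.252 (median 0.145) in pam46, against 0.486 to 0.865 (median 0.629) in WT, with a difference of -1.74 (-2.25 to -0.92). AT3G54930, a regulatory subunit of protein phosphatase PP2A, had 0.356 to 0.534 (median 0.491) in pam46, against 0.817 to 1.32 (median 1.19) in WT. Its difference was -1.01 (-1.13 to -0.82). SWAP70, whose rice relative activates Rac GTPases, had 0.0807 to 0.132 (median 0.114) in pam46 and 0.365 to 0.660 (median 0.430) in WT, and a difference of -1.49 (-1.87 to -1.08).

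In 5 genes of stress, membrane and other families, differences ran from -2.0 to -1.19. AT1G05340, of a family of small cysteine-rich membrane proteins linked to stress, had 0.0232 to 0.165 (median 0.129) in pam46, against 0.468 to 0.730 (median 0.628) in WT. Its difference was -2.0 (-2.59 to -1.59). AT4G38670, of the thaumatin family that holds pathogenesis-related proteins, had 0.0427 to 0.0914 (median 0.0597) in pam46 and 0.236 to 0.471 (median 0.326) in WT, a difference of -1.72 (-2.32 to -1.20). Both genes were well separated between the groups, by 0.94 and 0.75 on the log2 scale between the lowest WT and the highest pam46 sample.

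AT4G16490, with armadillo repeats, had 0.0914 to 0.286 (median 0.151) in pam46, against 0.634 to 0.858 (median 0.705) in WT, and a difference of -1.69 (-2.11 to -1.46). AT4G34310, of the alpha/beta hydrolase family, had 0.234 to 0.621 (median 0.387) in pam46, against 0.969 to 1.20 (median 1.06) in WT, and a difference of -1.23 (-1.86 to -0.79). AT1G22850, of a membrane protein family named after SNARE-associated Golgi proteins, had 0.0530 to 0.175 (median 0.140) in pam46 and 0.276 to 0.478 (median 0.412) in WT, with a difference of -1.19 (-1.52 to -0.89). In AT1G22850 pam46 samples 4 and 5 lay below the other pam46 samples.

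The remaining 12 genes are given with no role, and their differences ran from -3.36 to -1.03 (median -1.5). AT3G52550 had the lowest difference of the 38 genes with the floor at the 5th percentile, a place that changed with the floor. Its intensity was 0 to 0.0825 (median 0.00545) in pam46, against 0.416 to 0.499 (median 0.481) in WT, where it was nearly level (SD 0.0688 on the log2 scale, n = 6). The difference was -3.36 (-3.85 to -3.01), and 4 of 6 pam46 samples stood at the floor. AT1G04330 had 0.000990 to 0.157 (median 0.0776) in pam46 and 0.307 to 0.415 (median 0.369) in WT, a difference of -1.82 (-3.02 to -0.81). Its pam46 samples 3 and 4 were the lowest, with sample 4 at the floor, and samples 5 and 6 were the highest.

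AT1G03660 had 0.0731 to 0.318 (median 0.202) in pam46, against 0.557 to 1.25 (median 0.889) in WT, and a difference of -1.78 (-2.21 to -1.27). AT2G43990 had 0.0596 to 0.133 (median 0.102) in pam46, against 0.316 to 0.517 (median 0.503) in WT, and a difference of -1.67 (-2.09 to -1.33). AT4G17440 had 0.214 to 0.757 (median 0.624) in pam46 and 1.15 to 1.43 (median 1.37) in WT, a difference of -1.21 (-2.05 to -0.70). In AT4G17440 the pair of numbers 5 and 6 carried the larger part, as pam46 samples 5 and 6 were at -1.96 and -1.06 on the log2 scale and the other pam46 samples at -0.64 to -0.30.

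AT1G03810 was the second brightest of the 38 genes, with 0.979 to 1.43 (median 1.34) in pam46, against 1.995 to 3.24 (median 2.36) in WT, and a difference of -1.03 (-1.27 to -0.83). AT1G35210 had 0.0502 to 0.129 (median 0.0932) in pam46, against 0.283 to 0.354 (median 0.321) in WT, and a difference of -1.23 (-1.55 to -0.95). Between the lowest WT and the highest pam46 sample, the groups were 0.54 apart in AT1G03810 and 0.59 apart in AT1G35210 on the log2 scale. AT1G68430 had 0.0782 to 0.164 (median 0.115) in pam46 and 0.301 to 0.405 (median 0.377) in WT, a difference of -1.11 (-1.59 to -0.59). AT2G04360 had 0.0889 to 0.188 (median 0.158) in pam46 and 0.340 to 0.554 (median 0.418) in WT, a difference of -1.06 (-1.34 to -0.70). In AT1G68430 and AT2G04360 alike, pam46 samples 5 and 6 were the lowest.

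Another 3 genes were dim in both groups. AT2G06040 had 0 to 0.0532 (median 0.0354) in pam46, against 0.136 to 0.333 (median 0.196) in WT, and a difference of -1.72 (-1.92 to -1.34). AT2G01400 had 0 to 0.0409 (median 0.0294) in pam46, against 0.114 to 0.210 (median 0.150) in WT, and a difference of -1.66 (-2.57 to -0.92), with 2 pam46 samples listed at 0. AT1G70350 had 0.0269 to 0.0646 (median 0.0341) in pam46, against 0.133 to 0.256 (median 0.196) in WT, and a difference of -1.35 (-1.85 to -0.88). On the log2 scale the groups of AT1G70350 were only 0.037 apart, between WT sample 6 and the highest pam46 sample.

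The difference was -1 or less in all 3 pairs of sample numbers in 16 of the 38 genes, and -0.5 or less in all 3 in 37 of them. Of all 264 genes or features that met the criteria, 168 had -1 or less in all 3 pairs. AT2G22890 was the exception, at -0.47 in numbers 5 and 6. The 3 differences lay within 0.5 of each other in 7 genes and spanned over 1 in 14 and over 2 in 5. Numbers 3 and 4 held the lowest difference in 16 genes, numbers 1 and 2 in 12 and numbers 5 and 6 in 10. Among the 264 genes or features the same counts were 127, 63 and 74, so numbers 3 and 4 led in both.

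**Figure D2:**
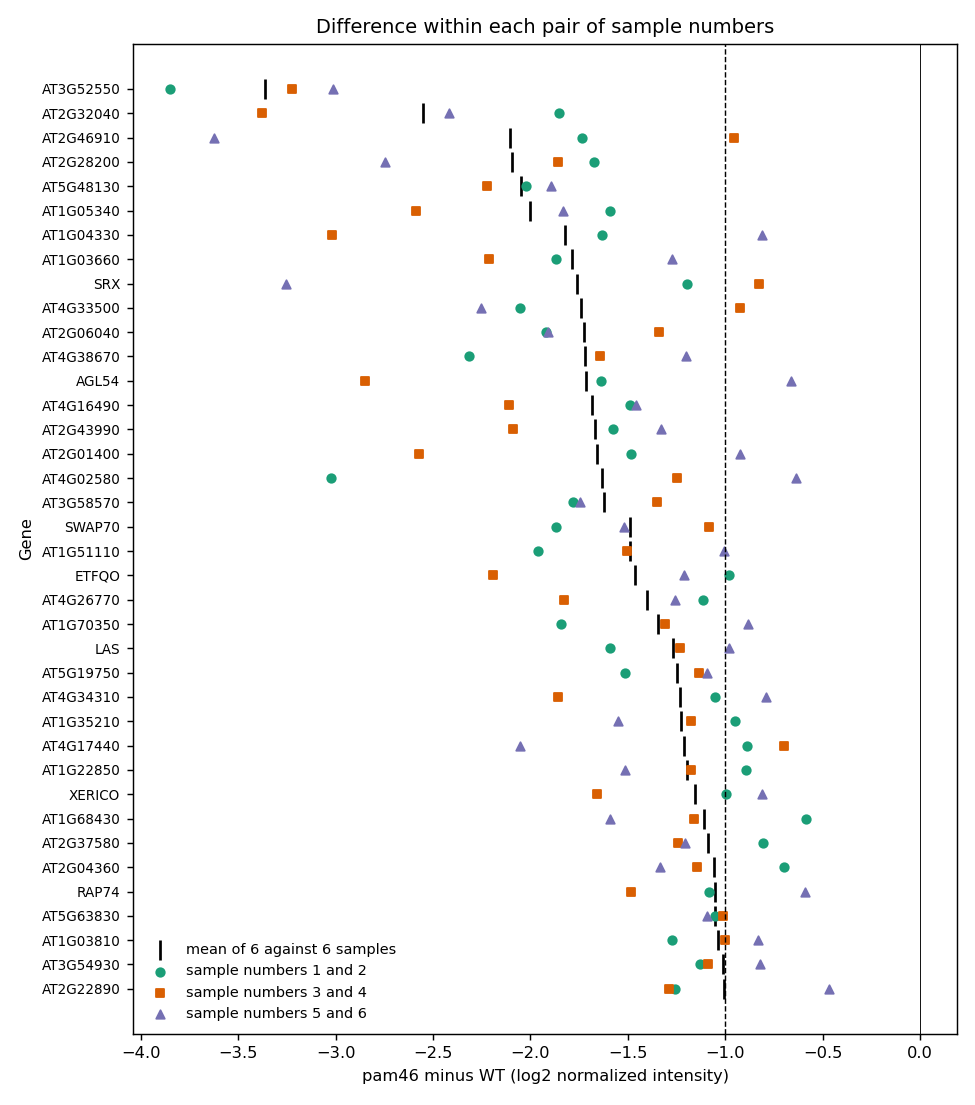
Log2 difference, pam46 minus WT, of each of the 38 genes (rows, ordered by the mean of 6 against 6 samples, black bar) within sample numbers 1 and 2 (circles), 3 and 4 (squares) and 5 and 6 (triangles). The dashed line marks -1. All points lie below 0, and AT2G46910, SRX and AT4G02580 show wide spans.

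The 38 genes included dim and moderately bright ones. Their mean intensity in pam46 was 0 to 1.59 (median 0.118), and in WT 0.143 to 3.33 (median 0.456). The other 653 genes with their own feature had medians of 0.198 in pam46 and 0.268 in WT, and reached 55.8 and 43.2. A gene at the floor in WT cannot meet the criteria, which by itself raises the lower end of the WT values. All genes or features were split into 4 bins of equal size by their mean over the 12 samples. From the dimmest to the brightest bin, the criteria were met by 4.88%, 10.6%, 9.43% and 5.81%. In the same order, 6, 14, 11 and 7 of the 38 genes fell in these bins. The median difference of all genes or features was 0.04, 0.02, -0.01 and -0.04 there.

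**Figure D3:**
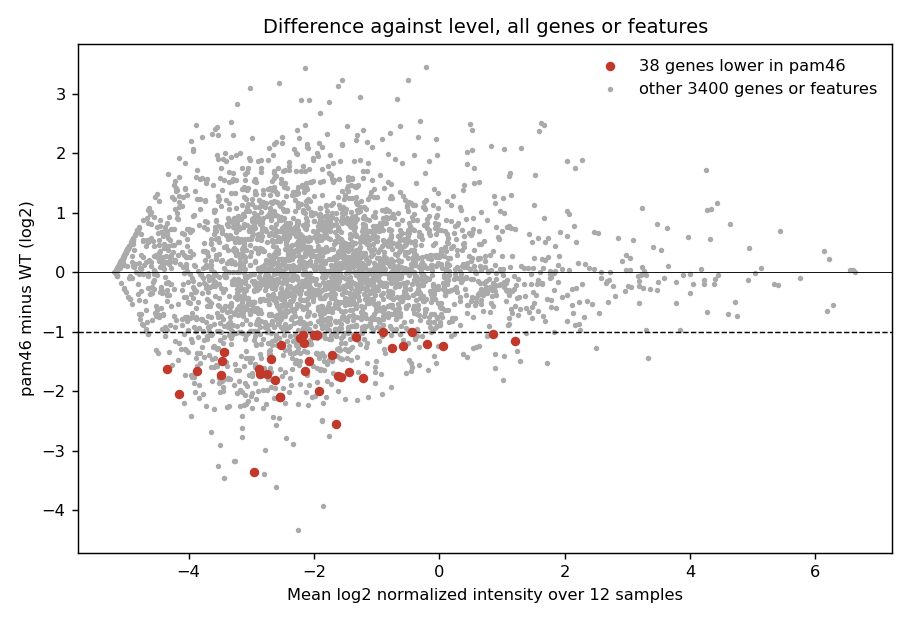
Log2 difference, pam46 minus WT (vertical axis), against the mean log2 normalized intensity over the 12 samples (horizontal axis) for all 3438 genes or features, with the 38 genes in red. The 38 genes lie on or below the dashed line at -1, among other genes or features with like differences.

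Values were more spread in pam46 than in WT for 24 of the 38 genes (63.2%), against 292 of the other 653 genes (44.7%). The median SD on the log2 scale was 0.469 in pam46 and 0.287 in WT for the 38 genes, and 0.379 and 0.380 for the other 653. The criteria favour a small spread in both groups, so these values are not independent of the choice. The 38 genes also differed in level from the other 653, with lower median intensity in pam46 (0.118 against 0.198) and higher in WT (0.456 against 0.268). The criteria favour both of these differences in level. Spread was not compared at like level. At least 1 pam46 sample stood at the floor in 10 of the 38 genes, all 6 stood there in 2, and no WT sample did in any.

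How far a gene was lower depended on the scaling, since pam46 samples had lower medians. On the values as deposited, the 38 genes had a median difference of -2.09 and the median of all genes or features was -0.36. With each sample scaled to the same median these were -1.59 and 0.09, and 30 of the 38 genes still met the criteria. The 8 others were AT5G19750, AT4G34310, AT4G17440, XERICO, AT2G37580, AT1G03810, AT3G54930 and AT2G22890, among them the 2 brightest, XERICO (-0.49) and AT1G03810 (-0.42). All 38 genes stayed lower in pam46 under each scaling tried.

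The floor set the size of the difference for genes near it. With the floor at the 1st percentile of positive values, AT4G02580 was at -6.13, AT5G48130 at -5.24 and AT3G52550 at -5.22, so the last no longer had the lowest difference. With the floor at the 20th percentile, 32 of the 38 genes still met the criteria, and AT2G32040 (-2.22) was below AT3G52550 (-2.0). The 6 others were AT2G06040 (-0.66), AT1G70350 (-0.57), AT1G51110 (-0.55), AT4G02580 (-0.38), AT2G01400 (-0.35) and AT5G48130 (-0.25). Of these, AT4G02580, AT2G01400 and AT5G48130 were no longer called lower by limma (adjusted p = 0.235, 0.0673 and 0.183). SRX (0.134) and AT1G51110 (0.0657) lost that call with the floor at the 1st percentile. XERICO and LAS had the same difference under each floor.

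**Figure D4:**
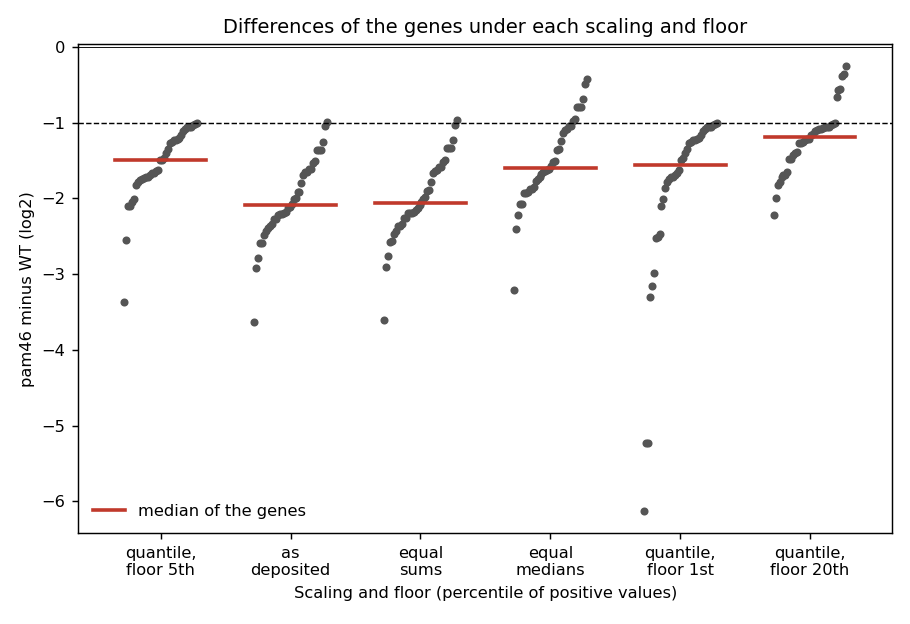
Log2 difference, pam46 minus WT, of each of the 38 genes (points, sorted within each column) under 4 scalings with the floor at the 5th percentile and under 2 other floors, with the median in red. The median lies at -1.49 with quantile normalization, -2.09 as deposited and -1.59 with equal medians, and all points lie below 0.

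Just inside the threshold of -1 were AT2G22890 (-1.01), AT3G54930 (-1.01) and AT1G03810 (-1.03). AT1G12100 (-0.98), AT1G76240 (-0.97) and AT2G25640 (-0.97) lay just outside it, with groups that also did not overlap. Of 80 genes with their own feature whose pam46 samples all lay below WT, 35 had a difference above -1. Another 33 genes had a difference of -1 or less but overlapping groups. The smallest overlaps were in AT2G03140 (-1.73), where the highest pam46 sample was at -4.06 and the lowest WT sample at -4.07 on the log2 scale, AT2G48090 (-1.21) and AT2G19870 (-1.44).

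Of the 38 genes, 37 were matched to a locus of RefSeq's assembly TAIR10.1 (used for names and gene order only), and AT1G03660 kept the array annotation's name. By chromosome, 10 of 173 measured genes of chromosome 1 were among them, 12 of 123 of chromosome 2, 3 of 130 of chromosome 3, 8 of 120 of chromosome 4 and 4 of 143 of chromosome 5. Genes that met the criteria but are not described count here among the measured genes only. These are therefore not the shares that met the criteria, which was 6.51% of all 691 genes, and the chromosomes cannot be ranked by them. The nearest neighbours were XERICO and AT2G04360 on chromosome 2, with 6 protein-coding genes between them. The next nearest, AT1G03810 and AT1G04330, had 52 between them.

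RefSeq symbols and synonyms held a word for a functional class in 29 of the 691 genes, of which 8 were called higher and 8 lower in pam46 by limma and 13 neither. Over all 3438 genes or features, 19.5% were called higher. Of 12 enzymes named by such a word, 3 were higher, 5 lower, with ETFQO among the 5, and 4 neither. Of 5 genes with a plastid word, 1 was higher and 1 lower, and of 5 with a cell wall word, 1 was higher and 2 lower. Of 3 kinase or phosphatase genes 2 were higher and none lower, the single RNA gene was higher, and the 3 genes with a word for transcription factors or protein turnover did not pass in either direction. No measured gene had a word for transporters or the cytoskeleton. The other 37 of the 38 genes had no such word, so these counts say little about them.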

How the data were processed

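The authors deposited 1 table of spot intensities on a linear scale for 3439 features in 12 samples. No scanner, background correction, scaling or tissue is given in the sources used here. Intensities carry no read depth. The precision depends on the number of arrays and on whether they came from separate plants, which the labels do not say. Because medians differed up to 1.71-fold between samples, intensities were quantile-normalized, set to at least the 5th percentile of positive values (0.0278) and taken to log2. The fit used limma 3.58.1 under R 4.3.3 (two-sided moderated test, Benjamini-Hochberg over 3438 genes or features, called at an adjusted p under 0.05). It was checked on simulated data in which samples were independent, which cannot show how it fares where samples deviate together. The platform annotation from GEO may be outdated and gave 1 gene for 692 features, several for 870 and none for 1877. AT2G25870 kept the brighter of its 2 features, and a feature can also bind near-identical transcripts. Same-numbered samples of the groups deviated together (r from 0.240 to 0.566 in 6 pairs), and the fit with the number as a block is an alternative. Consecutive numbers of a group also deviated together (0.259 to 0.670). The labels do not say that the numbers pair the samples, and differently numbered samples of the groups were not compared. The genes, groups and alternatives were chosen with earlier results of these data known. All 38 genes are named, with the lowest, median and highest intensity of each group. Functional classes were to be read from annotated products, but the tables used here hold only symbols and synonyms, so known roles order the text and support nothing. Promoter motifs were not analysed here, and no sequences are printed.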

Additional observations from a re-analysis of the deposited data

Results flagged for a closer look

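Each gene's values within a group of 6 samples were searched for a highest or lowest sample standing apart by Dixon's ratio of gap to range. Of 76 groups, 2 held such a sample, and chance marks about 1 in 20. For AT2G43990, WT sample 5 was at -2.06 on the log2 scale and the other WT samples at -1.25 to -1.02. Without it the difference of AT2G43990 was -1.82. For AT2G22890, WT sample 3 was at 0.02 and the other WT samples at -0.59 to -0.43. Without it the difference of AT2G22890 was -0.92, outside the threshold of -1. The difference also lay outside without pam46 sample 1 (-0.97), 2 (-0.91) or 4 (-0.95), none of which stood apart.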

How the results depend on the processing

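The criteria were met by 124 genes when no scaling was applied, by 117 when sums were made equal, and by 59 with consecutive numbers averaged, where 3 samples a group separate more easily. The genes' median difference was -2.09 as deposited, -2.07 with equal sums and -1.18 with the floor at the 20th percentile. With 1 sample left out, the criteria were met by 36 to 45 genes (34 to 38 of the 38), their median difference was -1.55 to -1.41, and 1315 to 1390 genes or features changed, against 1413 in the full fit. SRX lost its call without WT sample 1, 2, 3 or 4 or pam46 sample 5 (adjusted p = 0.0550 to 0.0726), and the other 37 genes kept theirs. The replicate block gave 1658 changed, and all 38 genes were called lower. Averaging consecutive numbers gave 587 changed, of which 312 (9.08% of all genes or features) were lower, with 29 of the 38 genes among them. Averaging with the replicate block gave 693 (24 of the 38 called lower). A random block for consecutive numbers gave 922 (34 of the 38 called lower). Averaging leaves fewer samples, and the cause of the lower totals was not otherwise tested. The totals 1658, 693 and 922 count both directions, so they are no background for the 38 genes, which were counted as lower only. With dim features left out, 34 of the 38 genes were kept and met the criteria. Higher and lower calls numbered 669 and 744 in the full fit, 373 and 1301 without scaling, 382 and 1274 for equal sums, and 899 and 642 for equal medians. No gene turned sign under any alternative run.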
